A study of Mus musculus with 6 samples.

Results

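The genes described here were *Fxyd1*, *Fxyd2*, *Fxyd3*, *Fxyd5*, *Fxyd6*, *Fxyd7*, *Atp1b1* and *Atp1b2*, 8 of the 53808 mouse genes listed for MIN6 cells with and without *Snd1*. They were taken as a named list of FXYD genes and β subunit genes of the sodium pump, and the list was selected on the measured TPM of *Fxyd7*, which was lower in each *Snd1* KO clone than in each control clone. The difference of *Fxyd7* between the groups is therefore given as a description with no test, and so are the differences of the other 7 genes, which come from the same contrast. Counts at the thresholds of a fit over all genes, which also hold some of these genes, are given below as background and are no test of them. MIN6 is a mouse insulinoma cell line that makes insulin and serves as a model of the pancreatic β cell. RNA was sequenced from 3 control clones, in which Cas9 had been directed to intron 2 of *Snd1*, and from 3 *Snd1* KO clones (KO clones), in which Cas9 had been directed to exon 2. All 6 clones are thus MIN6 lines that had been exposed to Cas9 and a gRNA against *Snd1*, each is 1 clone with 1 library, and differences between single clones enter both groups. No other treatment separated the groups.

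The sodium pump, or Na,K-ATPase, uses ATP to move sodium out of the cell and potassium into it, and so keeps the ion gradients on which the membrane potential of an excitable cell such as the β cell rests. Its α subunit binds the ions and ATP, and its β subunit is a glycoprotein that brings the α subunit to the membrane. FXYD proteins are small single-span membrane proteins, named after a motif of 4 amino acids, that associate with the pump and alter its affinity for ions or its rate in a way that depends on the tissue. FXYD1, or phospholemman, acts in heart and muscle, FXYD2 is the γ subunit of the kidney pump, and FXYD3 is found in epithelia and tumors. FXYD5, or dysadherin, is known from epithelia and from tumor cells, and FXYD6 and FXYD7 are known mainly from the nervous system. ATP1B1 is the widespread β subunit, whereas ATP1B2 was described in glia and nervous tissue.

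Levels are given as TPM, the values deposited by the authors, within a gene. Genes were compared with each other as reads per kilobase of merged exon per 1000000 reads (RPKM), after the number of whole reads behind each value had been recovered from the TPM. Exceptions are the sums of markers and the marker named as leading each by its mean, which use deposited TPM, and alternatives given as such. The recovered depth was between 23738481 and 30477122 reads on genes per clone. This is above the output per library that the methods of the study state, so it is open what 1 recovered read stands for, and read counts and counting intervals hold only on the scale of the recovered steps. *Snd1* itself was at 113, 119 and 112 TPM in Control 1, 2 and 3 and at 14.7, 57.1 and 19.9 TPM in *Snd1* KO 1, 2 and 3, so each KO clone lay below each control clone and *Snd1* KO 2 kept the most *Snd1* RNA. Clones did not group cleanly by genotype. Across genes, Control 3 correlated more closely with *Snd1* KO 3 (0.955) than with Control 1 (0.943) or Control 2 (0.936), and *Snd1* KO 1 more closely with Control 3 (0.938) and Control 1 (0.934) than with *Snd1* KO 3 (0.933) or *Snd1* KO 2 (0.922). β cell markers were abundant in both groups, with a sum of 43655 to 76860 TPM in the control clones and 47455 to 81431 TPM in the KO clones, led by *Iapp*. Of the 8 markers *Ucn3*, a late β cell hormone, was the one whose groups did not overlap, and is named after its values were seen, at 0.472, 0.373 and 0.273 TPM in the control clones and 41.6, 0.680 and 0.635 TPM in the KO clones. Among the 17823 genes with a mean at or above 0.5 TPM, all KO clones were higher for 9.69%, so nothing is read from 1 such marker. Markers of blood cells, at most 0.193 TPM in sum, and of duct and acinar cells, at most 1.26 TPM, were near 0. Since RNA was taken from whole cultures, fewer cells that express a gene and less RNA per cell cannot be told apart.

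The genes lie in a few places of the genome (build GRCm38). *Fxyd5*, *Fxyd7*, *Fxyd1* and *Fxyd3* follow each other on the minus strand of chromosome 7. *Fxyd7* (ENSMUSG00000036578) spans chr7:31042513-31051467 with 2 annotated transcripts. It is 31 bases away from *Fxyd5* (chr7:31032722-31042481) on one side and 210 bases away from *Fxyd1* (chr7:31051678-31057199) on the other. *Fxyd3* (chr7:31068172-31076704) shares 2764 bases with *Lgi4* on the opposite strand. *Fxyd6* (chr9:45370185-45396159) and *Fxyd2* (chr9:45399669-45410278) lie 3509 bases apart on the plus strand of chromosome 9. *Atp1b1* (chr1:164437109-164458355) and *Atp1b2* (chr11:69599736-69605942) lie on the minus strands of chromosomes 1 and 11, and *Atp1b1* shares 617 bases with *Nme7* on the opposite strand. The library kit does not mark strand, so reads in these overlaps cannot be assigned to one gene by strand.

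Promoter sequences were at hand from RefSeq (GRCm38.p6) for 5 of the 8 genes, namely *Atp1b1*, *Fxyd1*, *Fxyd3*, *Fxyd5* and *Fxyd6*, and not for *Fxyd2*, *Fxyd7* and *Atp1b2*. Each holds 250 bases before and 50 bases after the start, and was searched on both strands for the TATA box (TATAAA), the CCAAT box (CCAAT), the GC box (GGGCGG), an E-box (CACGTG) and a homeodomain core (TAATTA), which do not overlap each other in the windows shown. The promoters of the 2 abundant β subunits, *Atp1b1* and *Atp1b3*, are shown beside that of *Fxyd1*, the scarce neighbour of *Fxyd7*, all on the minus strand and 5′ to 3′, with the motif matches in capitals.
*Atp1b1*, chr1:164458306-164458605: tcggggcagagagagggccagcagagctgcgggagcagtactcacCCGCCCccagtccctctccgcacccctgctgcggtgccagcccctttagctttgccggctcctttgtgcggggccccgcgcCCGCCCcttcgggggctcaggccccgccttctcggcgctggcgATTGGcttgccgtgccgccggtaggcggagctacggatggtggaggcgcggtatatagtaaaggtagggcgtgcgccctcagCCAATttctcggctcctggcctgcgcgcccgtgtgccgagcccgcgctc
*Atp1b3*, chr9:96364382-96364681: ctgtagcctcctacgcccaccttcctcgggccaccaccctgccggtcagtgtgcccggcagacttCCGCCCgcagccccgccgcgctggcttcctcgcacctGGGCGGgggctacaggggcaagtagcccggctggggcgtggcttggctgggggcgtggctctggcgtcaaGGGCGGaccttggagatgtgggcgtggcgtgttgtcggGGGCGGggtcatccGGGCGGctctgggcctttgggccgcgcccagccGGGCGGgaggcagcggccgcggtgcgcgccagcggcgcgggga
*Fxyd1*, chr7:31054804-31055103: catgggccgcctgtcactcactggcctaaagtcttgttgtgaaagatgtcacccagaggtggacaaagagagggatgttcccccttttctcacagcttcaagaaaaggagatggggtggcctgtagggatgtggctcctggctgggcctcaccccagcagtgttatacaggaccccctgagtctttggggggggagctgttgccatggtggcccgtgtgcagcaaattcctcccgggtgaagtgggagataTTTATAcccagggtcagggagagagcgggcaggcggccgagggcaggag
The *Atp1b1* window had 71.0% G and C with 2 matches to GGGCGG, at -205 and -124 from the start, and 2 to CCAAT, at -81 and 2. The *Atp1b3* window had 76.0% G and C and 6 matches to GGGCGG. The table holds a second start of *Atp1b3*, whose window (chr9:96363666-96363965, not shown) had 74.7% G and C, 0 matches to GGGCGG and 1 to CACGTG at -221. The *Fxyd1* window had 58.7% G and C and 1 match to TATAAA, which lies at 2, past the start. *Fxyd3* and *Fxyd6* each had 1 match to CCAAT, and *Fxyd5* had no match to any of the 5 motifs. Among the 32544 promoters of the table, 35.9% held GGGCGG, 37.4% held CCAAT, 13.6% held TATAAA, 7.17% held CACGTG and 5.29% held TAATTA. These matches describe letters and not binding.

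*Fxyd7* was the FXYD gene with the most RNA in these cells and the one by which the list was drawn up. Its level was 11.7, 12.6 and 6.62 TPM in Control 1, 2 and 3 and 1.77, 1.38 and 2.29 TPM in *Snd1* KO 1, 2 and 3. The groups did not overlap, and the lowest control clone, Control 3, was at 2.89 times the level of the highest *Snd1* KO clone. The mean was 10.3 ± 3.23 TPM (SD, n = 3) in the control clones and 1.81 ± 0.455 TPM (SD, n = 3) in the KO clones, 17.6% of control or 5.69-fold lower. On the scale of log2(TPM + 1), on which the fold change of a low gene is understated, the difference was -1.97 (SE 0.27). Leaving out 1 clone at a time gave -2.24, without Control 3, to -1.82, without Control 2. The reads behind these values were few, with 88, 90 and 43 in the control clones and 12, 9 and 16 in the KO clones. The depth-scaled ratio of the summed reads was 17.4% with an exact 95% interval of 11.9% to 24.7%, which covers counting error and not the difference between clones.

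**Figure D1:**
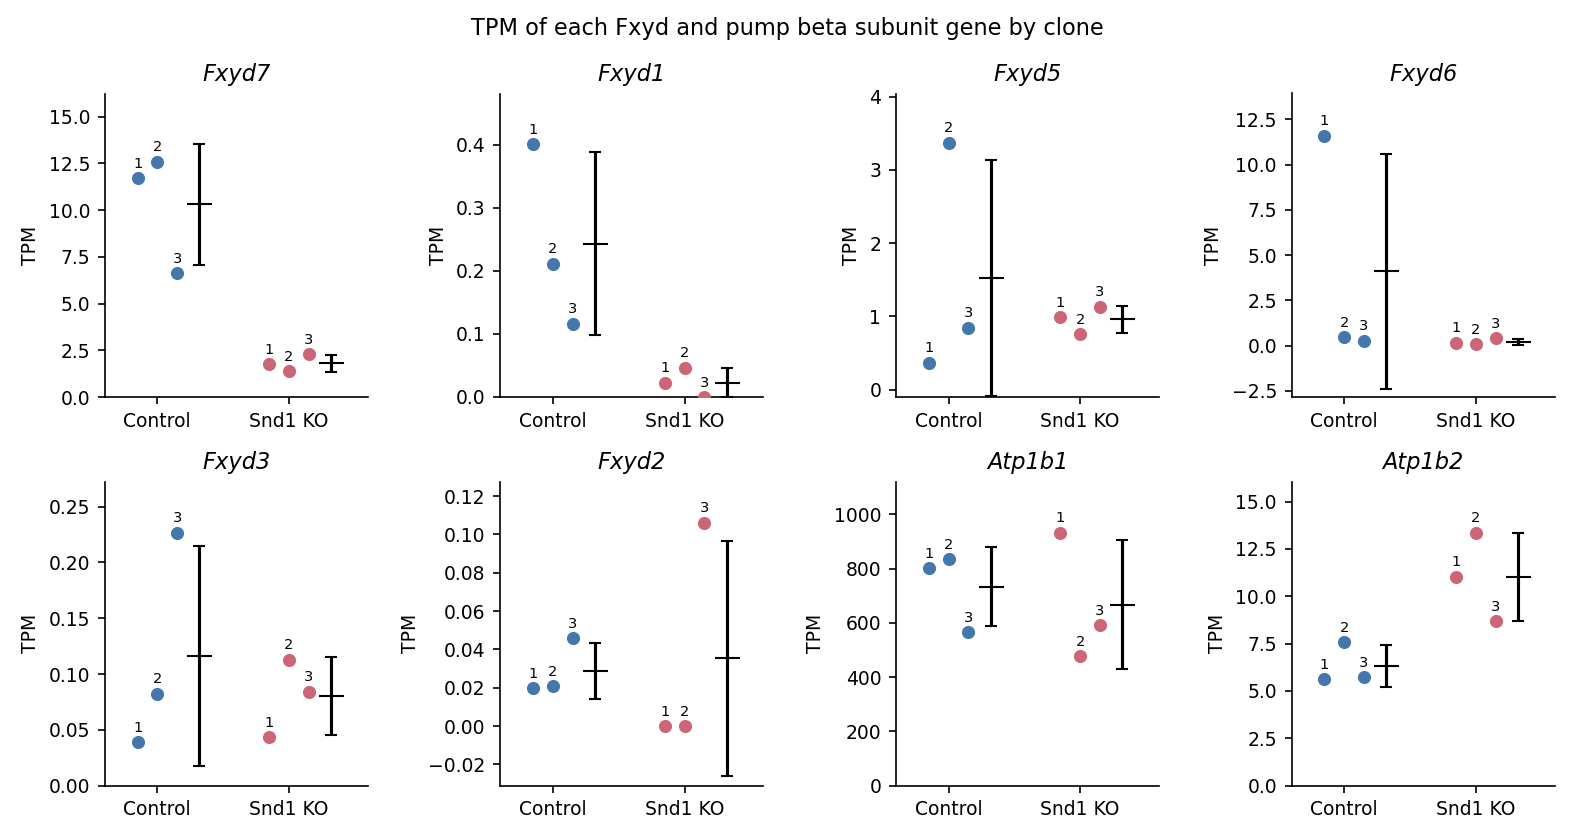
TPM (vertical axes, one scale per gene) of each FXYD and β subunit gene in 3 control and 3 KO clones (numbered points), with the group mean and SD as a black mark and bar. Fxyd7 lies between 6.62 and 12.6 TPM in the control clones and between 1.38 and 2.29 TPM in the KO clones, Atp1b2 is higher in each Snd1 KO clone, and Fxyd5 and Fxyd6 each have 1 control clone far above the rest. Bars that reach below 0 reflect a large SD, not values below 0.

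FXYD7 is known from neurons, so the neuron markers are given beside it. Of 11 such genes 8 had a mean at or above 0.5 TPM, and the sum of all 11, led by *Tubb3* in mean TPM, was 293 to 472 TPM in the control clones and 378 to 495 TPM in the KO clones. In 0 of these 8 genes were the KO clones all below or all above the control clones. Of all genes tested, 4.03% and 9.69% were so, and nothing is read from this count. Of the 3 scarcer genes *Slc17a7*, a vesicular glutamate transporter, named after its values were seen, was higher in each KO clone, at 0.230, 0.0569 and 0.188 TPM in the control clones and 0.360, 1.68 and 0.305 TPM in the KO clones. The summed glia markers, led by *Aqp4*, were at 27.4 to 40.3 TPM and 35.1 to 43.2 TPM, with the glial factor *Sox10* at 0 in all 6 clones. The part of either cell type in the level of *Fxyd7* was not tested.

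*Fxyd1* was also lower in each *Snd1* KO clone, but at the edge of detection. It was at 0.401, 0.211 and 0.116 TPM in the control clones and at 0.0223, 0.0462 and 0 TPM in the KO clones, from 20, 10 and 5 reads against 1, 2 and 0 reads. The ratio of the summed reads, 3 against 35, was 8.91% with an exact 95% interval of 1.75% to 28.3%. A count of 0 allows up to 3 reads, so in 3 of 3 KO clones *Fxyd1* was at or below that floor. With a mean below 0.5 TPM it was not part of the fit across genes.

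*Fxyd5* and *Fxyd6* each had 1 control clone far above the others, and their groups overlapped. *Fxyd5* was at 0.365, 3.37 and 0.846 TPM in the control clones and at 0.990, 0.758 and 1.13 TPM in the KO clones, that is, high in Control 2 and between 0.365 and 1.13 TPM in the other 5 clones. Its log2 difference was -0.19 (SE 0.45) and became 0.30 without Control 2 and -0.54 without Control 1. *Fxyd6* was at 11.6 TPM in Control 1, from 395 reads, but at 0.464 and 0.272 TPM in Control 2 and 3 and at 0.163, 0.0677 and 0.411 TPM in the KO clones. Its log2 difference of -1.25 (SE 0.86) rested on Control 1, through which alone it passed the filter on low values, and was -0.18 without it. The other 5 clones had 2 to 15 reads.

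*Fxyd2* and *Fxyd3* were barely detected. *Fxyd2*, the γ subunit gene, had 1, 1 and 2 reads in the control clones and 0, 0 and 5 reads in the KO clones. *Fxyd3* had 2, 4 and 10 reads in the control clones and 2, 5 and 4 reads in the KO clones, and part of the gene overlaps *Lgi4*, with 16 to 95 reads per clone. No difference was detectable at this depth for either gene. *Fxyd4*, an FXYD gene of the kidney and colon that was not on the list, had 0 reads in all 6 clones.

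*Atp1b1* was by far the most abundant of the 8 genes, and its groups overlapped. It was at 802, 835 and 566 TPM in the control clones and at 933, 477 and 591 TPM in the KO clones. The means were 734 ± 147 TPM and 667 ± 237 TPM (SD, n = 3 each), and the log2 difference was -0.17 (SE 0.28), with 0.038 when *Snd1* KO 2 was left out and -0.44 when *Snd1* KO 1 was left out or clones were weighted by quality. Both the highest and the lowest level belonged to a *Snd1* KO clone.

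*Atp1b2* was the one gene of the list that was higher in each *Snd1* KO clone. It was at 5.61, 7.58 and 5.74 TPM in the control clones and at 11.0, 13.4 and 8.68 TPM in the KO clones, from 259 to 376 and 422 to 606 reads. The mean was 6.31 ± 1.10 TPM in the control clones and 11.0 ± 2.34 TPM in the KO clones (SD, n = 3 each), 1.75-fold higher, with a log2 difference of 0.71 (SE 0.20) and 0.57 to 0.86 when 1 clone was left out. The lowest *Snd1* KO clone, KO 3, was 1.15 times the highest control clone, Control 2.

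Over all genes, 5 of the 8 had a mean at or above 0.5 TPM, namely *Fxyd5*, *Fxyd6*, *Fxyd7*, *Atp1b1* and *Atp1b2*, and entered the fit of log2(TPM + 1) with limma. These counts contain the contrast by which *Fxyd7* was picked, and *Fxyd6* entered them through Control 1 alone. They are no test of the 5 genes, and nothing is read from them. At an adjusted p under 0.05 with at least a 2-fold change, 0 of the 5 were called, against 0.00561% of the 17823 genes tested, which is 1 gene, *Gm24966*. The study, at the same limits, reported far more genes as changed, both lower and higher, and checked several by qPCR. The cause of that gap was not tested. At an unadjusted p under 0.05, 2 of the 5 passed, *Fxyd7* and *Atp1b2*, against 7.96% of all genes tested. All KO clones were above all control clones for 1 of the 5, *Atp1b2*, against 9.69% of all genes, and below for 1 of the 5, *Fxyd7*, against 4.03%. Among all genes with groups that did not overlap, 70.6% were higher in the KO clones, but 46.8% were after quantile normalization, 53.9% after median ratio scaling and 83.9% once insulin and mitochondrial genes had been taken out of the total. *Fxyd7* stayed lower and *Atp1b2* higher in each *Snd1* KO clone under all of these scalings. With clone quality weights, which gave Control 3 a weight of 0.279 and *Snd1* KO 1 a weight of 0.286, 1 of the 5 genes, *Fxyd7*, was called, against 5.02% of all genes.

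**Figure D2:**
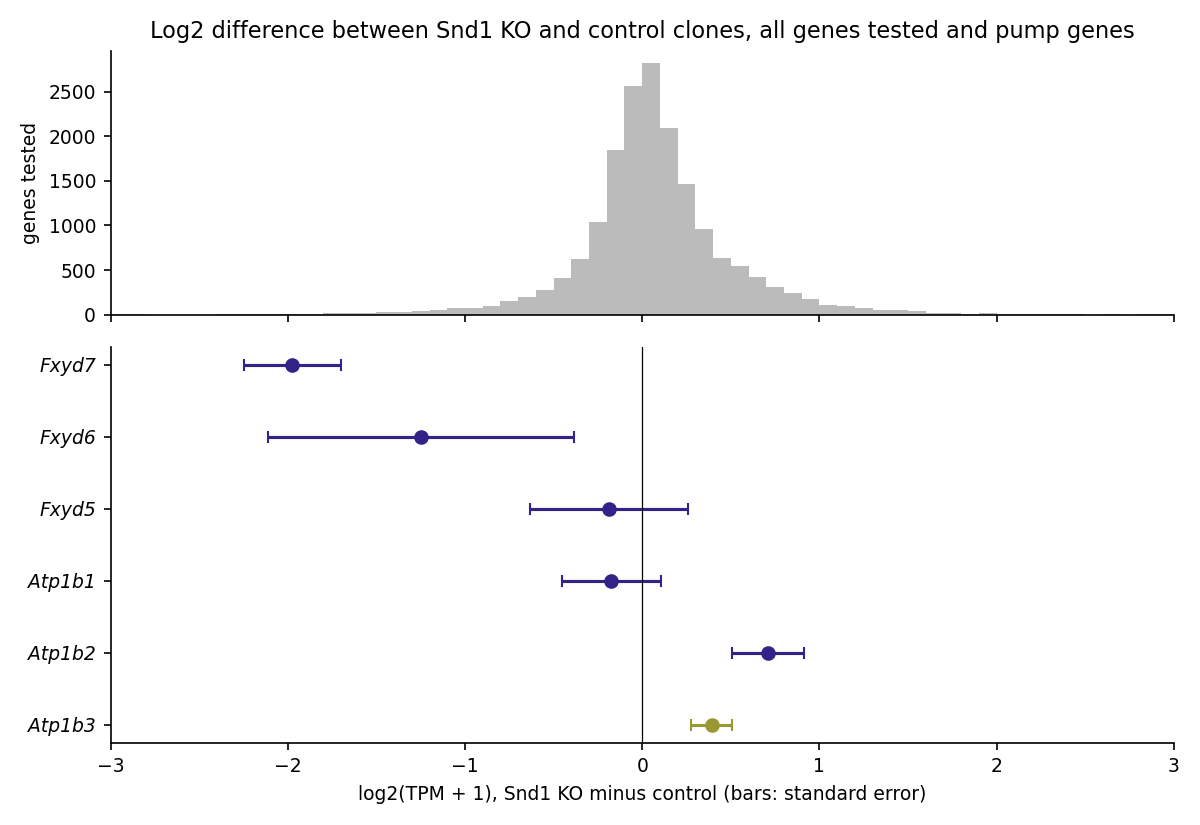
Log2(TPM + 1) of Snd1 KO minus control clones (horizontal axis), as a histogram of the 17823 genes tested above, with differences beyond 3 placed in the outermost bins, and below it for the 5 genes of the list (dark) and Atp1b3 (light), each with its standard error. Fxyd7 lies at -1.97, Atp1b2 at 0.71 and the median of all genes at 0.04, whereas the bars of Fxyd5 and Atp1b1 cross 0.

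Levels between genes were not used to draw up the list, and were compared per length. The mean over the 6 clones was 188 RPKM for *Atp1b1*, 3.76 for *Atp1b2*, 2.21 for *Fxyd7*, 0.682 for *Fxyd5*, 0.590 for *Fxyd6*, 0.101 for *Fxyd1*, 0.0359 for *Fxyd3* and 0.0137 for *Fxyd2*. Neighbours in this order were compared within clones. The 2 pairs that hold *Fxyd7* are given with no test, since its values chose the list, and the other 5 pairs were compared by an exact two-sided sign-flip permutation test and adjusted over these 5. The same 6 clones set the order and so the pairs, and the tests only describe how steadily the order held between clones. In the pairs with *Fxyd1*, *Fxyd2* or *Fxyd3*, these genes had at most 20 reads per clone. *Atp1b1* was above *Atp1b2* in 6 of 6 clones, by 5.68 ± 0.69 (SD) on the log2 RPKM scale (exact p = 0.03125, adjusted p = 0.156). *Fxyd7* was above *Fxyd5* by 4.39, 1.32 and 2.38 in the control clones and by 0.30, 0.34 and 0.46 in the KO clones on the same scale, and below *Atp1b2* in 4 of 6 clones. An exact p of 0.03125 is the smallest that 6 clones can give, so a single pair that reaches it cannot pass the adjustment over 5 pairs. The other 4 pairs tested kept their order in 3 to 5 of 6 clones, with exact p of 0.0938 to 0.344. In control clones alone *Fxyd7* took the second place and *Atp1b2* the third, and in the KO clones alone *Atp1b2* was second.

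Per length, *Fxyd7* held the largest share of FXYD RNA in 6 of 6 clones, and that share was lower in each *Snd1* KO clone. It made up 53.1, 67.8 and 76.8% of the summed FXYD level in the control clones and 51.0, 49.7 and 50.7% in the KO clones, a difference that follows in part from the selection on *Fxyd7*, with Control 1 close to the KO clones. *Fxyd5* made up 2.50, 27.3 and 14.8% in the control clones and 42.9, 41.0 and 37.7% in the KO clones, a larger share in each *Snd1* KO clone although its own level did not separate the groups. The sum contains *Fxyd7*, so the larger *Fxyd5* share also follows in part from the selection and is no result about *Fxyd5*. *Fxyd6* held 40.3% of FXYD RNA in Control 1 and 1.86 to 6.96% in the other clones. The summed FXYD level was 7.84, 6.63 and 3.40 RPKM in the control clones and 1.26, 1.05 and 1.63 RPKM in the KO clones.

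**Figure D3:**
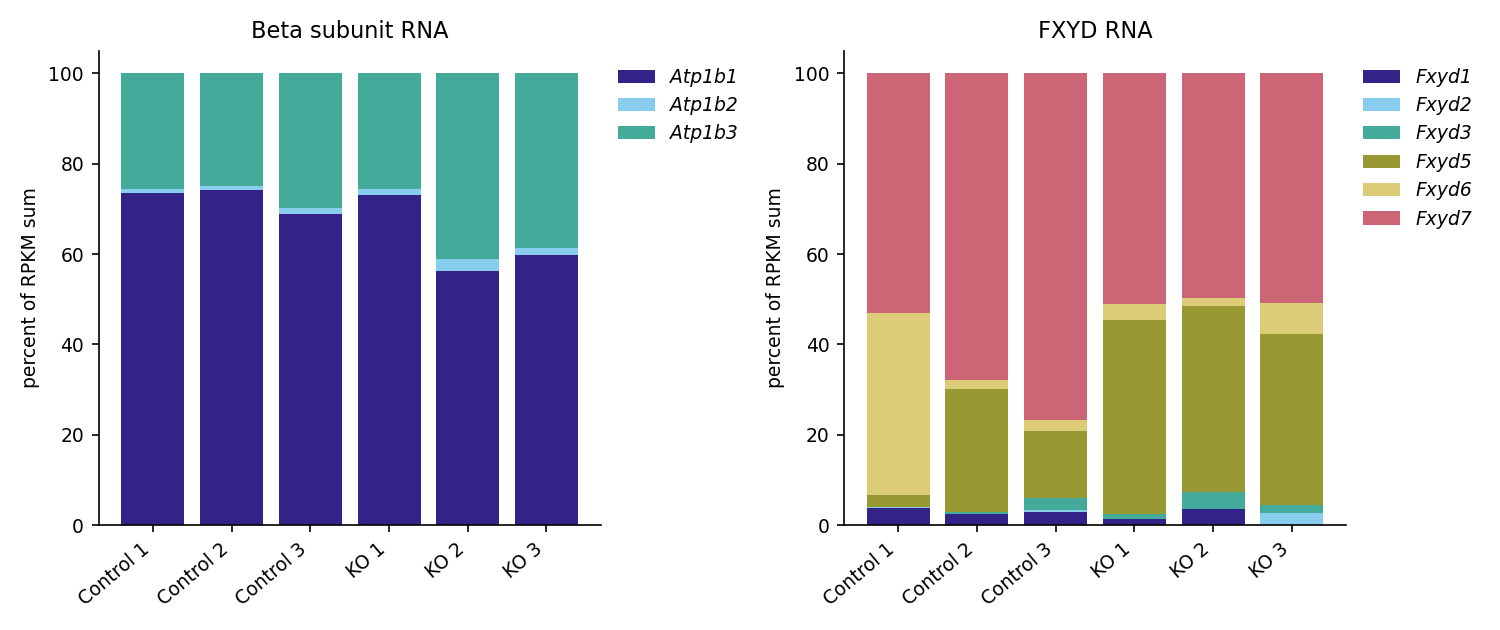
Share of each gene in the summed RPKM of the β subunit genes (left) and of the FXYD genes (right) in each clone, in percent. Atp1b1 and Atp1b3 make up nearly all β subunit RNA, and Fxyd7 holds the largest FXYD share in each clone, with Fxyd6 prominent in Control 1 and Fxyd5 in the 3 KO clones. Each FXYD share depends on Fxyd7, on which the list was selected.

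Among the pump subunits that were not on the list, 4 are given here, which were part of the fit across all genes where they passed the filter on low values. *Atp1b3*, the third β subunit, was the 1 that passed. It was at 330, 330 and 289 TPM in the control clones and at 386, 411 and 451 TPM in the KO clones. These groups did not overlap, but the log2 difference of 0.39 (SE 0.12) did not pass the test (limma adjusted p = 0.568). With clone quality weights the adjusted p was 0.0235, with a log2 difference of 0.43, below the 2-fold limit. *Atp1a4* and *Atp1b4*, which are known from sperm and from muscle, were at most 0.106 TPM in any clone, and *Fxyd4* was at 0 as given above.

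Per length, the summed β subunit level was 237 to 295 RPKM in the control clones and 235 to 338 RPKM in the KO clones, so the groups overlapped. Within this total, *Atp1b2* made up 0.827, 1.08 and 1.12% in the control clones and 1.39, 2.54 and 1.41% in the KO clones, a larger share in each KO clone. *Atp1b3* made up 24.8 to 29.9% in the control clones and 25.6 to 41.1% in the KO clones, in which KO 1 lay within the range of the control clones. *Atp1b1* made up 72.2 ± 2.80% and 63.1 ± 8.78% (SD, n = 3 each), again with groups that overlapped.

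FXYD RNA was scarce beside β subunit RNA in both groups. The FXYD total amounted to 2.75, 2.25 and 1.43% of the β total in the control clones and to 0.371, 0.447 and 0.622% in the KO clones, 2.14 ± 0.666% against 0.480 ± 0.129% (SD, n = 3 each). The group means differed 4.47-fold and the groups did not overlap. This ratio does not depend on the scaling between clones. It contains *Fxyd7* and was chosen after the values were seen, so it is given with no test.

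**Figure D4:**
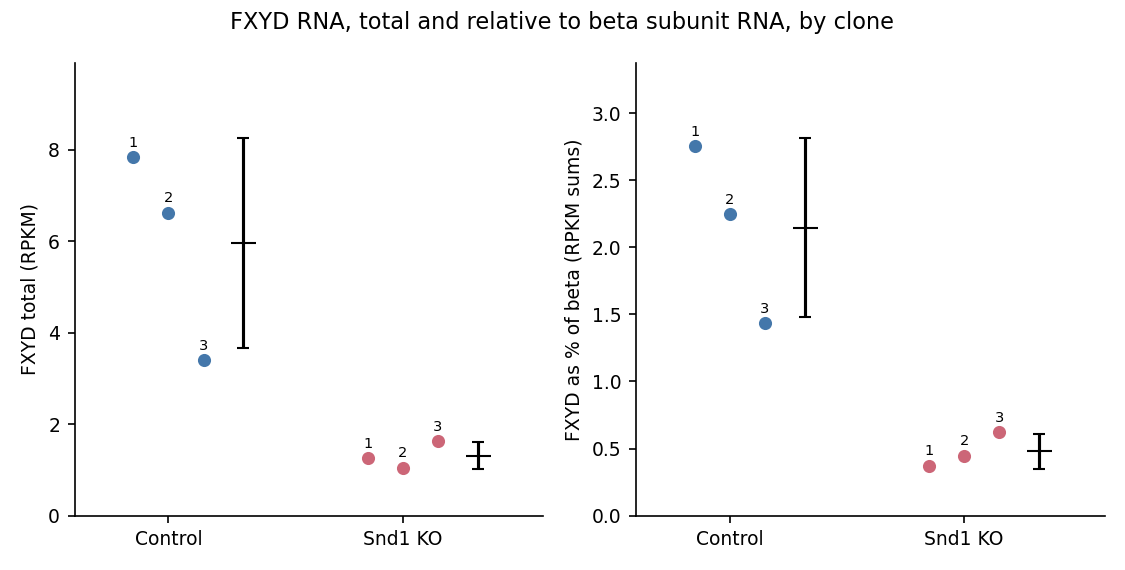
Summed FXYD level in RPKM (left) and summed FXYD level as percent of the summed β subunit level (right) in 3 control and 3 KO clones (numbered points), with group mean and SD (black). The total lies between 3.40 and 7.84 RPKM in the control clones and between 1.05 and 1.63 RPKM in the KO clones, and the percentage between 1.43 and 2.75 and between 0.371 and 0.622.

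The groups overlapped for each tested gene described around *Fxyd7*. Over all genes tested, all KO clones were higher for 9.69% and lower for 4.03%, so overlap is the usual case. Within 100000 bases of *Fxyd7* on either side 15 other genes were taken, of which 9 passed the filter on low values. The median log2 difference was 0.26, from -0.25 for *Gramd1a* to 0.62 for *Fam187b*. Besides *Gramd1a*, which codes for a cholesterol transfer protein, *Fxyd5* was the other gene of the 9 with a lower mean in the KO clones. *Lsr*, a lipoprotein receptor of tricellular junctions, and *Usf2*, a transcription factor, had log2 differences of 0.52 and 0.30. The others of the 9 were *Lgi4*, with 0.22, and the noncoding genes *Gm44662*, *Gm17077* and *Gm4673*, with 0.52, 0.03 and 0.26. Among the genes that did not pass the filter, *Fxyd1*, next to *Fxyd7*, was lower in each *Snd1* KO clone as given above.

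**Figure D5:**
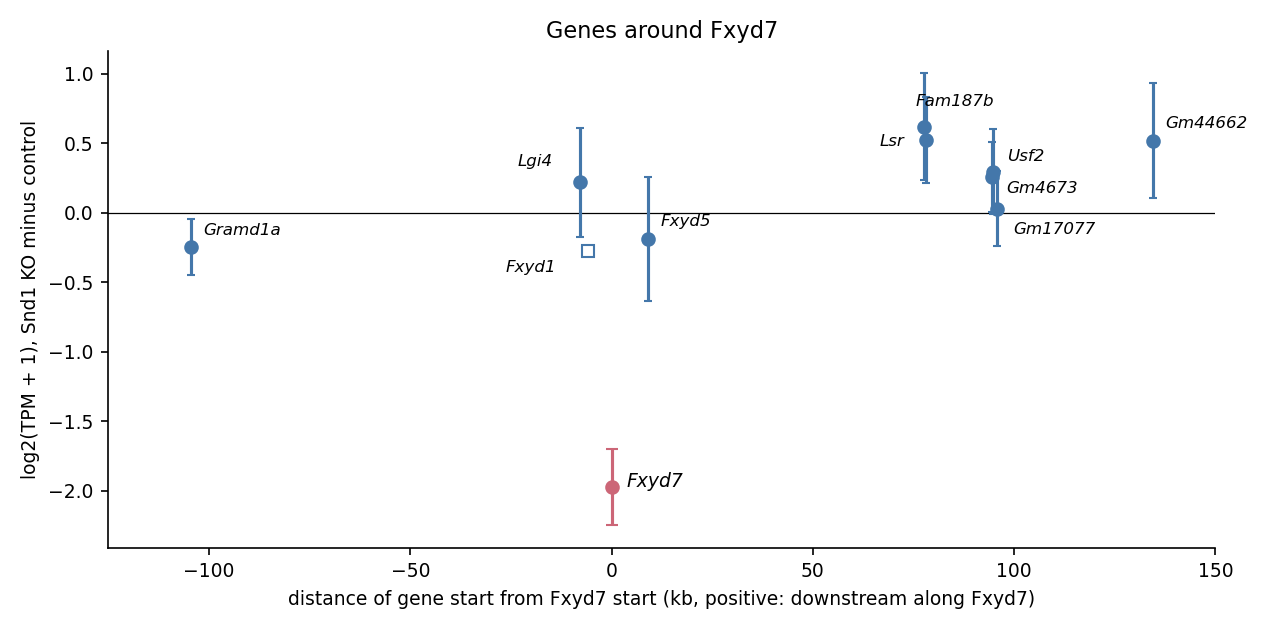
Log2(TPM + 1) of Snd1 KO minus control clones (vertical axis, bars are standard errors) against the distance of the start of each gene from the start of Fxyd7 in kb (horizontal axis), for Fxyd7 (red), the 9 tested genes around it (blue) and Fxyd1 (open square, not tested). Fxyd7 lies at -1.97 and the 9 genes lie between -0.25 and 0.62.

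Among 15726 other genes with a mean at or above 1 TPM, the profile over the 6 clones that was most like that of *Fxyd7* was sought by the root mean square difference of centred log2(TPM + 1) values. The median of that difference over all genes was 1.06. The closest was *9430083B18Rik*, an unverified transcript, with 0.284, at 4.25, 2.34 and 1.17 TPM in the control clones and listed at 0 in all 3 KO clones. *Necab2*, a neuronal calcium-binding protein, followed with 0.301, at 86.8, 85.0 and 45.1 TPM in the control clones and 17.3, 23.2 and 31.2 TPM in the KO clones. *Sp8*, a zinc finger transcription factor, had 0.326, with means of 105 ± 54.3 and 20.1 ± 0.681 TPM. *Tgfbi*, an extracellular matrix protein, had 0.349, at 10.3, 8.88 and 7.31 TPM in the control clones and 0.766, 0.795 and 3.20 TPM in the KO clones. *Ttr*, the thyroid hormone carrier transthyretin, had 0.366, with means of 17283 ± 3020 and 5201 ± 3118 TPM (SD, n = 3 each). These genes were picked for the likeness, so their order of clones is no separate result. The other genes of the list with a mean at or above 1 TPM were no closer than the typical gene or little closer, with 0.946 for *Atp1b1*, 1.01 for *Fxyd5*, 1.05 for *Fxyd6* and 1.39 for *Atp1b2*. *Fxyd1*, *Fxyd2* and *Fxyd3* lay below that limit and were not compared.

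Other genes that act with the pump were taken as 5 lists, of which the first holds the 4 subunits given above. Over all 73 listed genes, 55 passed the filter, 0 were called, and 6 had an unadjusted p under 0.05, against 7.96% of all genes tested. All KO clones were higher for 7 of the 55 and lower for 2, against 9.69% and 4.03% of all genes, and the median log2 difference was -0.07, against 0.04 over all genes. Of the 24 measured genes of sodium entry and sodium-coupled transport, which load the pump with sodium, 0 were called, in 0 did the groups separate, and the median log2 difference was -0.09. Of the 4 NKAIN genes, which code for proteins that bind the pump β subunit, 1 was measured, *Nkain1*. It was at 6.71, 3.10 and 1.11 TPM in the control clones and at 0.532, 0.553 and 1.33 TPM in the KO clones, so the groups overlapped through Control 3 and *Snd1* KO 3. This gene is named because it was the only one of its list that passed the filter on low values.

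Among 15 genes of other P-type ATPases, which are relatives of the α subunit that move other ions and *Atp4b*, the β subunit of the gastric proton pump (0 TPM in all 6 clones), 10 were measured and 0 were called, with 3 higher and 1 lower in all KO clones and a median log2 difference of 0.04. *Atp4a*, the α subunit of the gastric proton pump, was at 3.34 ± 1.20 TPM in the control clones and 6.72 ± 0.866 TPM in the KO clones, with groups that did not overlap (log2 difference 0.86, limma adjusted p = 0.568, and 0.0235 with clone quality weights). *Atp2c1*, the calcium and manganese pump of the Golgi, had 0.34, and *Atp13a2*, a lysosomal polyamine transporter, had -0.30 (limma adjusted p = 0.607 each), again with groups that did not overlap. Of 19 pump regulators, all measured, 0 were called, again with 3 higher and 1 lower in all KO clones, and the median log2 difference was -0.14. *Src*, a tyrosine kinase that binds the pump, was at 9.84 ± 3.38 TPM in the control clones and 2.99 ± 1.10 TPM in the KO clones, with a log2 difference of -1.42 (SE 0.32, limma adjusted p = 0.537). *Ppp1r1a* and *Ppp1r1b*, inhibitors of protein phosphatase 1 that act downstream of cAMP, were at 660 ± 97.4 and 901 ± 114 TPM and at 0.228 ± 0.288 and 1.13 ± 0.569 TPM. The log2 difference of *Ppp1r1a* was 0.45 (limma adjusted p = 0.591, and 0.0435 with clone quality weights). *Ppp1r1b*, with 1 to 74 reads per clone, passed the filter on low values only through the KO clones, and not without *Snd1* KO 2, so its place among the 3 higher regulators and the 6 genes with an unadjusted p under 0.05 is no support and its log2 difference of 0.79 is given with no test. That difference was 2.18 with a pseudocount of 0.1 and 3.07 with voom on recovered reads.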

How the data were processed

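RNA was sequenced from 3 control and 3 *Snd1* KO clones, with 1 library per clone and groups taken from the labels. The authors made Nextera XT libraries, read them from both ends, used the Genialis platform for processing, and deposited 1 TPM value per gene and clone. The submitters' processing notes name FastQC, Trimmomatic, HISAT2, HTSeq, DESeq2 and mm10, and versions are not given in the sources used here. Each clone lists 53808 genes and 92 ERCC controls, which were left out. GENCODE M21 (GRCm38) matched 53706 gene identifiers. Whole reads were recovered from TPM times the summed exon length of all transcripts, which gave values within 0.01 of a whole number in every clone for 91.7% of 14851 genes. For 1779 genes, none among the 8 genes, a length that gives whole numbers was searched for, so the share of 99.9% after the search is partly set by it, and other whole multiples of these steps are possible. The depth so recovered is above the sequencing output stated in the methods of the study. Whether a recovered read is 1 read or a pair is not given in the sources used here, and intervals would be too narrow if mates were counted apart. Counting intervals and the floor of 3 reads cover counting error only.

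Log2(TPM + 1) of the 17823 genes averaging 0.5 TPM or more was compared by limma 3.58.1 with a mean-variance trend (R 4.3.3), and p-values were adjusted after Benjamini-Hochberg, at an adjusted p under 0.05 and at least 2-fold. Levels between genes were compared by exact sign-flip tests after 0.5 reads had been added, and n of 3 clones measures the spread between clones. Python 3.11.15, pandas 2.3.3, numpy 2.4.6, scipy 1.17.1 and matplotlib 3.10.9 were used. The clone numbers were not treated as pairs.

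The genes and lists were chosen with earlier results of these data known. Named were the 8 genes, *Snd1*, other pump subunits (a few genes of these lists are not reported here), up to 3 genes per list with the largest difference among those whose groups did not overlap, tested genes within 100000 bases of *Fxyd7*, the 5 profiles most like it and leading markers. The marker lists also held 6 genes of other islet cells (174 to 314 and 55.9 to 1102 TPM in sum, led by *Gcg*, with *Hhex* and *Pyy* at 0) and 7 of fibroblasts and endothelium (0.229 to 4.83 and 0.649 to 0.945 TPM). Alternatives were other pseudocounts, filters, scalings, no trend, clone weights, a replicate block, voom on recovered reads, an adjusted p under 0.1 and each clone left out. The ratio of FXYD to β subunit RNA and its alternatives were added after the data were seen.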

Additional observations from a re-analysis of the deposited data

How the results depend on the processing

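Of the 212 alternative values of single genes other than *Fxyd7*, 205 stayed on their side of the threshold or, for genes given with no test, within the spread between clones. *Ppp1r1b*, although given with no test, was counted by the threshold. Its 2.18 with a pseudocount of 0.1 and 3.07 with voom, against 0.79, are among the 205 but moved beyond its spread. Values within that spread changed sign with 1 clone left out for *Fxyd5*, *Atp1b1*, *Fxyd3* and *Fxyd2* in 1 setting each, and for *Fxyd2* also with a pseudocount of 0.1. With a pseudocount of 0.1 *Fxyd1* and *Fxyd3* moved to -1.41 and -0.19, *Fxyd6* moved to -2.73 with voom and *Atp1b2* to 0.44 with clone quality weights. *Fxyd7* had a log2 difference of -1.97 in the fit reported, -2.42 with a pseudocount of 0.1, -2.45 with voom on recovered reads and -2.24 to -1.82 with 1 clone left out. Of all genes, 1 was called, against 0 without a filter, without a trend and with voom, 2 at an adjusted p under 0.1, 895 with clone quality weights and 0 to 2 with 1 clone left out, and 1419, 1803, 1410 and 1555 genes had an unadjusted p under 0.05 in the fit reported, without a filter, without a trend and with voom. The 2 genes without *Snd1* KO 2 were *Snd1* and *Gm24966*. With clone quality weights *Snd1* (-2.31, adjusted p = 0.0195) and *Src* (-1.67, adjusted p = 0.0179) were past the threshold, and *Atp1b3*, *Atp4a* and *Ppp1r1a* had an adjusted p under 0.05 with less than a 2-fold change. The groups did not overlap for 2445 genes, for 1586 at a mean of at least 5 TPM, and for 3246 to 6306 with 1 clone left out, with 6306 without Control 3, 5975 without *Snd1* KO 1 and 3246 to 3879 without 1 of the other 4. Of the 6306, 49.1% were higher in *Snd1* KO clones. Fewer clones separate more often by construction, so these counts are not on the scale of the 2445, and the cause of the excess without Control 3 and without *Snd1* KO 1 was not tested, nor was that of the other changes. Of the 8 genes, 6 kept their place in the order of levels by deposited TPM, 4 did in control clones alone and 6 to 8 with 1 clone left out, the fewest without Control 2. FXYD RNA per β subunit RNA in *Snd1* KO clones was 0.224 of control, 0.193 from deposited TPM and 0.191 to 0.261 with 1 clone left out.

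With a replicate block by clone number 0 genes were called, 1195 had an unadjusted p under 0.05, and the *Fxyd7* difference was -1.97. Deviations of clones of the same number had correlations of 0.115, -0.199 and -0.108, and those of unlike number -0.172 to 0.250. So few clones cannot decide whether the numbers pair them, and the labels do not say so. Depth limits *Fxyd1*, *Fxyd2* and *Fxyd3*, with at most 20 reads per clone.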
